A study of Mus musculus with 6 samples.

Results

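The platelet-derived growth factor genes measured here were 5 in number: the ligand genes Pdgfa, Pdgfb and Pdgfc and the receptor genes Pdgfra and Pdgfrb. They were chosen by name as the core of this signalling family, and all 5 had a probe set, among 12393 genes with a named probe set in all. Each gene had 2 probe sets. It was read through the one with the higher mean over the 6 arrays, and the other is shown beside it. The 10 probe sets belong to 22626 that were tested together.

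Each mouse gave one Affymetrix MOE430A array of RNA from its whole, pulverised lung, and the mice formed 2 groups of 3. All mice were labelled wildtype male C57BL/6J, 8 to 10 weeks old, and all lungs were taken at day 14. Mice A, B and C received saline, and mice D, E and F received 1 mg/kg bleomycin, a DNA-damaging drug that causes lung fibrosis when given into the airways. The volume was 50 µl. The treatment protocol names the oropharyngeal route and the source labels the intratracheal one. The trachea and main airways had been cut away before freezing.

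PDGF ligands are secreted dimers of A, B, C or D chains. The receptor PDGFRα binds A, B and C chains, and PDGFRβ binds B and D chains. Both are tyrosine kinases that signal through Ras and the MAP kinases, phosphoinositide 3-kinase and phospholipase C gamma. In the lung, PDGFRα marks fibroblasts of the alveolar wall and PDGFRβ marks pericytes and other mural cells. PDGF-A comes largely from epithelium and PDGF-B from endothelium, platelets and macrophages. PDGF-C is secreted in a latent form whose CUB domain has to be cleaved off, for instance by tissue plasminogen activator.

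The arrays carried the defining transcripts of lung. Sftpc, which encodes surfactant protein C, stood at 14.36 ± 0.03 in saline and 14.16 ± 0.17 in bleomycin lungs (log2 values, SD, n = 3 each). Array medians lay between 7.37 and 7.41, and arrays of one group correlated at 0.986 to 0.995 over probe sets. Saline B went against its label of male: Xist stood at 11.40 there and between 7.23 and 7.88 on the other arrays, and the Y-linked Eif2s3y at 4.05 against 7.23 to 8.02. Differences without saline B are therefore given for the 5 PDGF genes: 1.04 for Pdgfc, 0.00 for Pdgfa, -0.23 for Pdgfb, -0.50 for Pdgfra and -0.49 for Pdgfrb, of which Pdgfc passed. As a sign of RNA integrity, the Actb control signal at the 3′ end exceeded that at the 5′ end, on the log2 scale, by 1.58, 1.14 and 1.71 in saline A, B and C and 1.23, 1.27 and 1.04 in bleomycin D, E and F. For Gapdh the excess was 1.46, 0.88 and 1.39 in saline and 0.81, 0.98 and 1.10 in bleomycin lungs, in the same order. Saline A and C were above all bleomycin arrays on both, and the part of this in the results was not tested. The number of arrays limits the precision here, and each array is labelled as its own mouse.

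Of the 5 genes, Pdgfc alone passed the test, and it was higher after bleomycin, by 2.24-fold. Pdgfa and Pdgfb differed by less than the spread between mice. Pdgfra and Pdgfrb were lower by their brighter probe sets, neither past the threshold, and their dimmer probe sets did not show it. The test was limma's, with Benjamini-Hochberg adjustment over all 22626 probe sets and a threshold of 0.05. In the same test 5.60% of all genes passed, 3.70% higher and 1.90% lower, so 1 of 5 is a count too small to set the family apart from other genes.

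To show where the ligand that rose and a ligand that did not differ in their upstream DNA, the 250 bases before the start of Pdgfc and Pdgfa are given 5′ to 3′ on the strand of the gene, from RefSeq on GRCm38.p6. Capitals mark GC boxes (GGGCGG on either strand). The Pdgfc stretch lies at chr3:81036166-81036415 on the plus strand and the Pdgfa stretch at chr5:138994945-138995194 on the minus strand. For Pdgfa, with 2 listed windows, the one farther upstream was taken.
Pdgfc: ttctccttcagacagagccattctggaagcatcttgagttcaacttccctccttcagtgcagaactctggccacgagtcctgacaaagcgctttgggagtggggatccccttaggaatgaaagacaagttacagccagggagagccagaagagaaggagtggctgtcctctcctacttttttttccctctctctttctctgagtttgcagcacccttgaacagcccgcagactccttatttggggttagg
Pdgfa: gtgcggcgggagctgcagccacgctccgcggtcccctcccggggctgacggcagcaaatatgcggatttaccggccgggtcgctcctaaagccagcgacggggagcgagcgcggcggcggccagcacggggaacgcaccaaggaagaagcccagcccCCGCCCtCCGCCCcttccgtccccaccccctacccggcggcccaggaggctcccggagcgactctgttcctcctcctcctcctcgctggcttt
The Pdgfa stretch was richer in G and C, at 72.4%, against 50.8% for Pdgfc and a median of 52.4% over all 32851 promoter windows of the table. Pdgfa held 2 GC boxes and Pdgfc held 0, while 32.7% of all windows held at least 1. Neither stretch held an EGR motif (GCGNGGGCG, in 4.7% of windows), an AP-1 motif (TGANTCA, in 6.7%), a TATA box (TATAAA, in 12.4%) or a STAT motif (TTCNNNGAA, in 7.0%), each searched on both strands. The 250 bases before Pdgfra, another gene that did not pass, had 54.4% G and C. They held 0 GC boxes and none of the other motifs, as was found for Pdgfc. These motifs were searched separately, and where none matched, only these letters in this window are meant. The part of upstream DNA in the Pdgfc difference was not tested.

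Pdgfc, the ligand that activates PDGFRα after cleavage, was the gene of the family that moved. On the probe set used it stood at 7.16, 6.79 and 7.16 in saline A, B and C, and at 8.57, 8.06 and 7.97 in bleomycin D, E and F. All bleomycin lungs were above all saline lungs, with a gap of 0.81 between the closest pair, and bleomycin D was the highest. The means were 7.04 ± 0.21 and 8.20 ± 0.32 (log2, SD, n = 3 each). The difference was 1.16 ± 0.18 log2 units (SE, 95% interval 0.75 to 1.57, limma adjusted p = 0.012), which is 2.24-fold with an interval of 1.68 to 2.97.

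The second Pdgfc probe set gave a larger difference. It stood at 5.81, 6.04 and 5.61 in saline A, B and C, and at 7.23, 7.30 and 7.19 in bleomycin D, E and F. The groups were again apart, here by 1.15, and the bleomycin lungs lay within 0.11 of each other, so that D did not stand out as it did on the first probe set. The difference was 1.42 ± 0.13 log2 units (SE, limma adjusted p = 0.00125), or 2.68-fold with an interval of 2.18 to 3.29. The first probe set carries the suffix that Affymetrix gives to sets whose probes match several transcripts, and the second the suffix for transcripts of a single gene. Without saline A the adjusted p of the first was 0.0552, with a difference of 1.23, and without saline B it was 0.034, with a difference of 1.04. The second passed in every fit with 1 array left out, with adjusted p between 0.00221 and 0.0148.

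**Figure D1:**
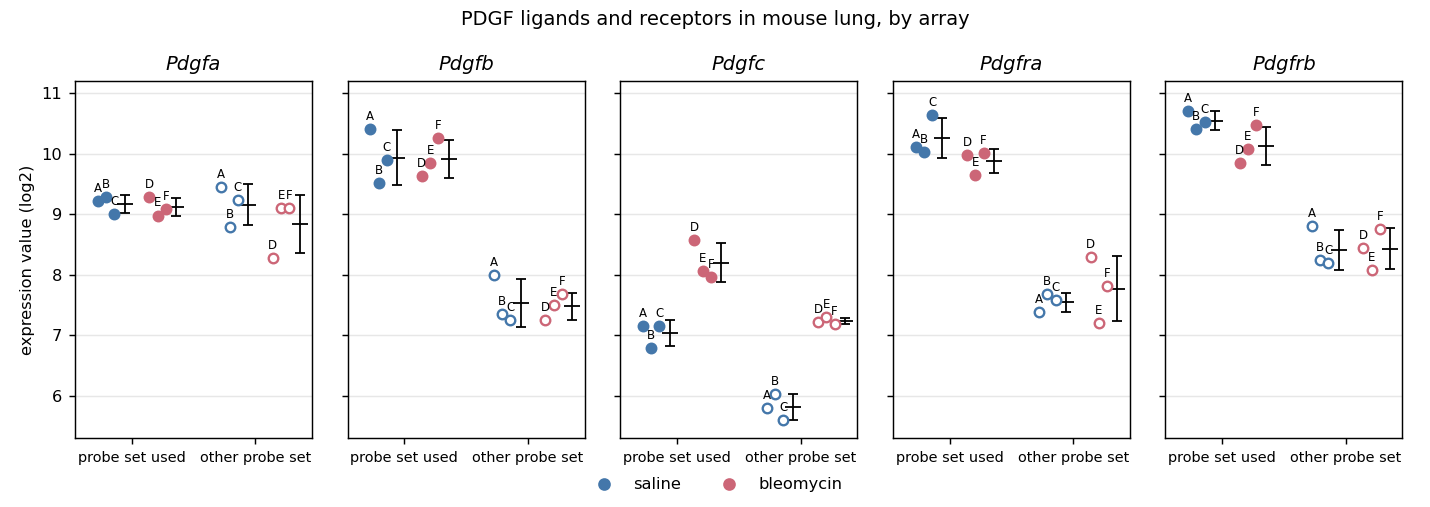
Expression values (log2, y axis) of the 5 PDGF genes in saline (blue, A to C) and bleomycin (red, D to F) lungs, with filled points for the probe set used, open points for the other, and bars for the mean ± SD of 3 arrays. For Pdgfc the bleomycin points lie above all saline points on both probe sets, while for Pdgfa and Pdgfb the groups overlap on both.

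Pdgfa, the A chain that binds PDGFRα, stood at 9.22, 9.29 and 9.01 in saline A, B and C, and at 9.28, 8.98 and 9.09 in bleomycin D, E and F. The groups overlapped almost entirely, and saline B and bleomycin D were the highest of their groups. The difference was -0.06 ± 0.13 log2 units (SE, limma adjusted p = 0.831), and its 95% interval of -0.34 to 0.23 runs from 0.787-fold to 1.17-fold, so a change of the size seen for Pdgfc lies outside it. The other Pdgfa probe set was more spread: 9.45, 8.79 and 9.24 in saline A, B and C, and 8.28, 9.11 and 9.11 in bleomycin D, E and F. Bleomycin D was the lowest there, whereas it was among the highest on the first probe set, so the 2 probe sets do not rank the mice alike. The difference on it was -0.33 ± 0.25 (SE, limma adjusted p = 0.495).

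Pdgfb, the B chain that binds both receptors, did not differ beyond its spread either. It stood at 10.41, 9.51 and 9.89 in saline A, B and C, and at 9.63, 9.85 and 10.26 in bleomycin D, E and F. Saline A was the highest and saline B the lowest array, and all bleomycin values fell between them. The difference was -0.02 ± 0.24 log2 units (SE, 95% interval -0.57 to 0.52, limma adjusted p = 0.97). The spread within each group was wide, so that a fold between 0.676 and 1.44 lies inside the interval, and the sign turned without saline A (0.22) and without bleomycin D (0.12) or E (0.01). The other probe set showed the same overlap, with 8.00, 7.35 and 7.26 in saline A, B and C and 7.25, 7.51 and 7.68 in bleomycin D, E and F, a difference of -0.06 ± 0.20 (SE, limma adjusted p = 0.902).

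Pdgfra, the receptor of alveolar wall fibroblasts, stood at 10.11, 10.03 and 10.64 in saline A, B and C, and at 9.98, 9.65 and 10.01 in bleomycin D, E and F. All bleomycin lungs were below all saline lungs, but the gap between bleomycin F and saline B was 0.02 log2 units, and saline C stood apart above the others. The groups of 27.9% of all genes did not overlap, 14.6% with the bleomycin arrays below and 13.3% with them above, so the separation of 2 of the 5 PDGF genes, Pdgfc and Pdgfra, is close to that share. The difference was -0.38 ± 0.18 log2 units (SE, 95% interval -0.79 to 0.03, limma adjusted p = 0.271), and without saline C it was -0.19. A difference of at least that size in either direction was found for 17.5% of all genes.

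The other Pdgfra probe set pointed the opposite way. It stood at 7.38, 7.68 and 7.58 in saline A, B and C, and at 8.29, 7.21 and 7.82 in bleomycin D, E and F. The bleomycin lungs there spanned 1.08 log2 units, with D the highest and E the lowest of all 6 arrays. The difference was 0.22 ± 0.24 (SE, limma adjusted p = 0.638). The probe sets thus give no common direction for Pdgfra.

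Pdgfrb, the receptor of pericytes and other mural cells, stood at 10.71, 10.40 and 10.53 in saline A, B and C, and at 9.84, 10.07 and 10.47 in bleomycin D, E and F. Bleomycin D and E were below all saline lungs, while F was above saline B. The difference was -0.42 ± 0.17 log2 units (SE, 95% interval -0.81 to -0.03, limma adjusted p = 0.2). That interval is for a single probe set and leaves out 0, but the difference did not pass once all probe sets were counted, and it ranged from -0.59 to -0.28 when single arrays were left out. The other probe set stood at 8.80, 8.24 and 8.20 in saline A, B and C, and at 8.45, 8.08 and 8.76 in bleomycin D, E and F, with saline A and bleomycin F the highest. It differed by 0.02 ± 0.21 (SE, limma adjusted p = 0.969), so the lower values rest on 1 of the 2 probe sets.

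**Figure D2:**
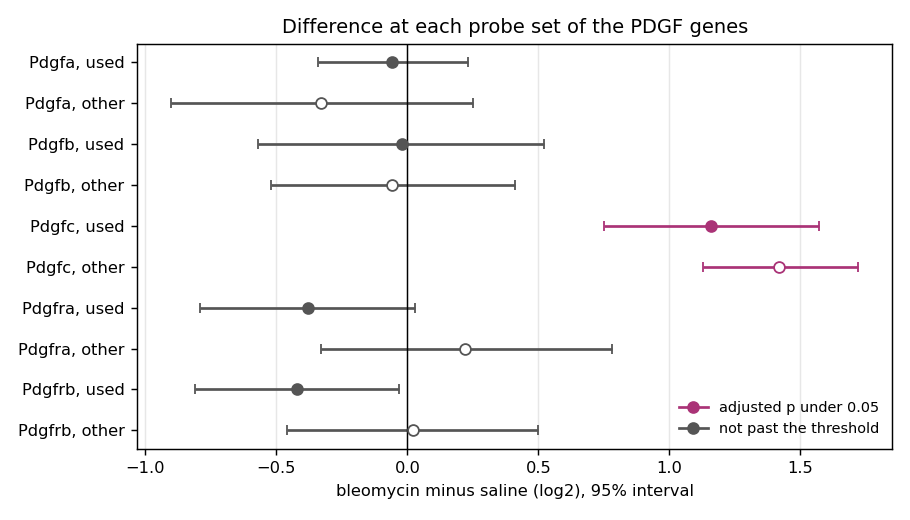
Bleomycin minus saline difference (log2, x axis) with its 95% interval at each of the 10 probe sets of the PDGF genes, filled for the probe set used and open for the other. Both Pdgfc probe sets lie to the right, at 1.16 and 1.42, and for Pdgfra and Pdgfrb the brighter probe set lies at -0.38 and -0.42 while the dimmer one lies at 0.22 and 0.02.

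Whether members moved unequally was asked within each array, by the difference between the log2 values of 2 genes, compared between groups by an exact two-sided permutation test. With 3 arrays against 3, the smallest p it can give is 0.1. Of 10 pairs, 5 reached that value, and each has a p of 0.2 after Benjamini-Hochberg adjustment over the pairs, so no pair passed. Pdgfc was in 4 of these pairs: its change exceeded that of Pdgfra by 1.54 log2 units, of Pdgfrb by 1.58, of Pdgfa by 1.22 and of Pdgfb by 1.18. In each of these pairs the groups did not overlap, which a p of 0.1 requires here, so the separation adds nothing to the test. The 4 pairs share Pdgfc and are not independent of each other.

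The fifth such pair was Pdgfb with Pdgfrb, 1 of the 2 receptors its product binds. Pdgfb minus Pdgfrb stood at -0.30, -0.89 and -0.64 in saline A, B and C, and at -0.21, -0.22 and -0.22 in bleomycin D, E and F. The bleomycin lungs were all higher and very close to each other, and Pdgfb gained 0.40 log2 units on Pdgfrb (exact p = 0.1, adjusted p = 0.2). Averaged over both probe sets of each gene the shift was 0.16. Pdgfb minus Pdgfra, the pair with its other receptor, shifted by 0.36 with overlapping groups (exact p = 0.4, adjusted p = 0.5). Both receptors changed by like amounts on the probe sets used: Pdgfra minus Pdgfrb shifted by 0.04 (exact p = 0.9, adjusted p = 1.0).

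Relatives of the family and proteins that process or bind the ligands were measured for 12 genes, of which 0 passed in limma in either direction, while 3 higher and 1 lower had an unadjusted p under 0.05. Their median difference was 0.08 log2 units, against -0.04 over all genes. How many of all genes had an unadjusted p under 0.05 was not counted. Such counts, here and for the lists below, therefore do not set a list apart from other genes. Pdgfd, the fourth ligand, was dim, at 4.83 ± 0.08 in saline and 4.79 ± 0.16 in bleomycin lungs (SD, n = 3 each). Plat, which encodes the tissue plasminogen activator that cleaves PDGF-C, stood at 9.27, 9.45 and 9.27 in saline A, B and C, and at 9.97, 9.57 and 10.00 in bleomycin D, E and F. The groups did not overlap, and the difference of 0.52 ± 0.14 log2 units missed the threshold (SE, limma adjusted p = 0.0768). Plau, which encodes urokinase, an activator of PDGF-D, differed by -0.06 ± 0.14 (SE, limma adjusted p = 0.83).

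Lrp1, an endocytic receptor that associates with PDGFRβ, differed by 0.53 ± 0.16 log2 units (SE, limma adjusted p = 0.0991), the largest difference of these 12 genes. Sparc, a matrix protein that binds B-chain PDGF, differed by 0.33 ± 0.13 (SE, limma adjusted p = 0.197) and by 0.65 on its other probe set. Nrp1, a co-receptor for PDGF and vascular endothelial growth factor, differed by -0.38 ± 0.14 (SE, limma adjusted p = 0.155). It differed by -0.37 and -0.48 on its other probe sets, and the bleomycin lungs were below the saline lungs on each probe set. None of the 3 genes passed the test on any of its probe sets with all arrays. Without bleomycin E, Plat (limma adjusted p = 0.0385) and Lrp1 (0.0461) passed as higher.

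Of 32 measured genes of signalling just below the receptors, 0 passed in limma in either direction, against 4 higher and 2 lower at an unadjusted p under 0.05, with a median difference of 0.01 log2 units and a range of -0.48 to 0.44. The lowest was Gab1, an adaptor that recruits phosphoinositide 3-kinase, at -0.48 ± 0.12 (SE, limma adjusted p = 0.0598), and it passed with array weights (adjusted p = 0.0474) and with repeated quantile normalization (adjusted p = 0.0332). The adaptor Grb2 differed by 0.18 on the probe set used and passed on another, at 0.72 log2 units (limma adjusted p = 0.0235). Of 16 negative regulators, 1 rose and 0 fell, against 2 higher and 5 lower at an unadjusted p under 0.05, again without a share over all genes. Dusp1, a phosphatase of MAP kinases, was called lower in limma with array weights (adjusted p = 0.0242) and without bleomycin D (0.034), and Cav1, the caveolin of plasma membrane pits, with array weights (0.039) and repeated quantile normalization (0.0374). Socs3, which inhibits cytokine signalling through JAK kinases, stood at 9.24, 8.92 and 9.80 in saline A, B and C, and at 11.44, 10.91 and 10.61 in bleomycin D, E and F. It rose 3.18-fold (limma adjusted p = 0.0122; leaving out saline A gave 0.068, and saline B 0.0322), and its other probe sets rose by 1.47 and 1.46 log2 units. It is known mainly as a feedback inhibitor of interleukin signalling.

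Among 25 genes that growth factors including PDGF induce in cultured cells, 3 rose and 1 fell, with a median difference of 0.20 log2 units. At an unadjusted p under 0.05, 10 were higher and 2 lower, counts that have no share over all genes beside them. By adjusted p, 1 rose and 0 fell without saline A or bleomycin F, and 2 rose and 0 fell without saline B or bleomycin D. Egr2, a zinc finger transcription factor, stood at 6.40, 6.49 and 6.28 in saline A, B and C, and at 8.38, 7.82 and 7.55 in bleomycin D, E and F. It rose 2.88-fold (limma adjusted p = 0.00586), passed on its other probe set too, at 1.13 log2 units, and passed in every fit with 1 array left out. Atf3, a stress-induced transcription factor, rose 1.89-fold (limma adjusted p = 0.013), but not without saline A (0.0536) or bleomycin F (0.0522). Sgk1, a serum- and glucocorticoid-induced kinase, rose 1.36-fold (limma adjusted p = 0.0435), and its call was lost with any 1 array left out, with adjusted p from 0.0866 to 0.123.

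The gene that fell was Nr4a1, an immediate-early nuclear receptor, by 0.89 log2 units (limma adjusted p = 0.0333). Its adjusted p was 0.0929 without saline A, 0.0789 without saline B, 0.0854 without bleomycin D and 0.112 without bleomycin F. The immediate-early genes Fos and Egr1, which PDGF induces in culture, differed by 0.00 ± 0.24 and -0.14 ± 0.43 log2 units (SE). Egr1 ranged from 9.26 to 10.99 in the saline lungs, so its spread was larger than its difference.

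**Figure D3:**
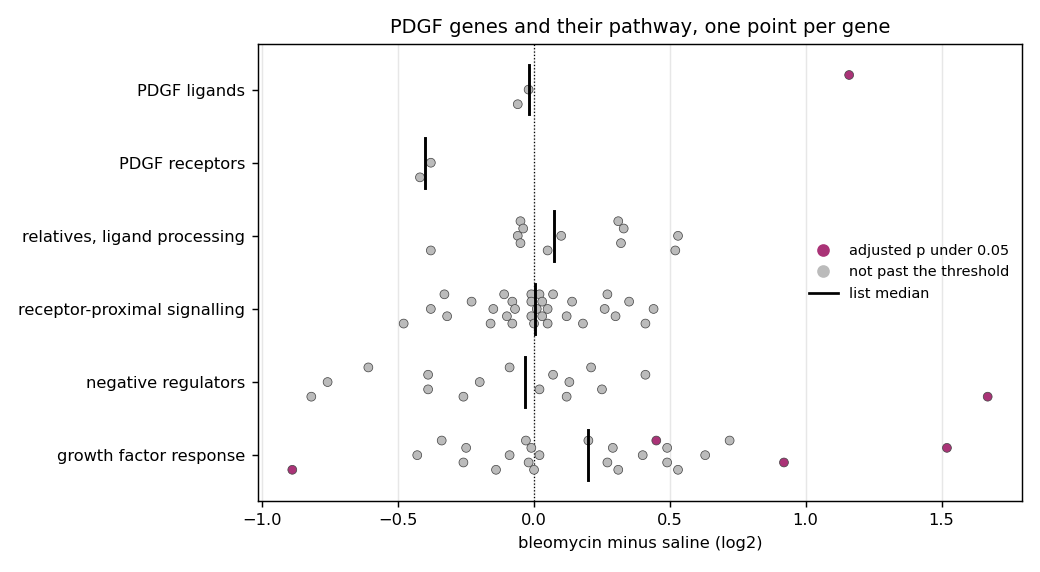
Bleomycin minus saline difference (log2, x axis) of each PDGF gene and pathway gene, by role, with the list median as a black line and genes past an adjusted p of 0.05 in purple. Pdgfc stands at 1.16 in the ligand row, 0 of 32 genes passed in receptor-proximal signalling on the probe sets used, and Socs3 (1.67) and Egr2 (1.52) lie farthest to the right.

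Markers of some of the cell types that express these genes differed between the groups, while few of pericytes and smooth muscle did. In RNA of whole lung, fewer cells of a type and less RNA per cell cannot be told apart. Macrophages and activated fibroblasts are among the cells that can express Pdgfc. Of 15 macrophage markers, 12 rose and 0 fell, with a median of 1.47 log2 units. Their summed linear level was 7165 to 8845 in saline and 21552 to 23006 in bleomycin lungs. Of 11 measured genes of activated fibroblasts, 7 rose and 0 fell, among them Tnc, Eln, Col1a1 and Fn1, with a summed level of 9428 to 12819 in saline and 22529 to 36511 in bleomycin lungs. Postn of this list differed by -0.18 log2 units (limma adjusted p = 0.674). Sfrp1 did not pass on the probe set used, at 0.25, but passed on others at 2.12 and 0.68 (limma adjusted p = 0.00214 and 0.0323). The other Col1a1 probe set, at 1.08, did not pass (limma adjusted p = 0.0914). Fewer activated fibroblast genes passed without saline A (4), saline B (5), saline C (5) or bleomycin F (3). Bleomycin D had the highest sum of both lists and the highest Pdgfc value on the probe set used. On the other Pdgfc probe set bleomycin E was highest, at 7.30 against 7.23 in D. On the one used, Pdgfc stood at 8.06 in E and 7.97 in F. The activated fibroblast sum was 22529 in E and 31187 in F, and the macrophage sum 21724 and 21552. The part of these cells in the Pdgfc difference was not tested.

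Beside Pdgfra stand the markers of alveolar fibroblasts, of which 7 of 14 fell and 2 rose. Slc7a10 fell by 1.61 log2 units, Inmt by 1.41, G0s2 by 1.11 and Fgfr4 by 0.90. Their summed level was 26329 to 28781 in saline and 15647 to 22261 in bleomycin lungs. Without saline A 1 of the list fell, and without saline B 4. The list's 2 rises, Gyg and Plin2, were lost without saline A, B or C or bleomycin F, 1 remaining without D or E, and 0 passed with arrays centred on ribosomal protein genes. Pdgfra had its lowest value in bleomycin E, while these markers had their lowest sum in D. The part of alveolar fibroblasts in the Pdgfra values was not tested.

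Beside Pdgfrb stand the pericyte markers, of which 1 of 11 rose, Rgs5, and 0 fell. Their summed level was 2539 to 3157 in saline and 2448 to 2989 in bleomycin lungs, so the groups overlapped. On its other probe sets Rgs5 differed by 0.14, 0.28 and 0.23 log2 units and did not pass (limma adjusted p = 0.658, 0.338 and 0.283). On the probe set used, Rgs5 had an adjusted p of 0.0553 in limma without bleomycin F, where 0 genes of the list were higher and 1 lower. The other members lay on both sides of 0, from Ebf1 at -0.80 (limma adjusted p = 0.0809) to Kcnj8 at 0.55 (0.0579). Of 9 smooth muscle markers 0 passed in limma in either direction, against 1 higher and 1 lower at an unadjusted p under 0.05, with a median of 0.08 log2 units and a largest difference of 0.66 for Actg2. The part of mural cells in the Pdgfrb values was not tested.

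Beside Pdgfb stand endothelium, platelets and macrophages. Of 14 endothelial markers 3 fell, Ramp2, Kdr and Flt1, and 0 rose. The summed level was 24111 to 29102 in saline and 17439 to 20838 in bleomycin lungs. Within the saline group, Pdgfb was highest in A and lowest in B, the endothelial sum was 29102, 24305 and 24111 in A, B and C, and the platelet sum was 2783, 3071 and 3570. Of these saline arrays, A had the most Pdgfb, the highest endothelial and the lowest platelet sum. Saline B had the least Pdgfb, but neither the lowest endothelial nor the highest platelet sum. Among bleomycin lungs F was highest in Pdgfb and in both sums. Of 9 platelet markers 2 fell, Clec1b and Gp5, and 0 rose, with sums of 2783 to 3570 in saline and 1995 to 2348 in bleomycin lungs. Other probe sets also passed for the endothelial gene Eng, at -0.97 log2 units (limma adjusted p = 0.00213), and for the platelet gene Gp1bb, at -0.66 (limma adjusted p = 0.0136), while the probe sets used differed by -0.45 and -0.22 and did not pass. Without saline A, 0 endothelial and 0 platelet markers passed, and without saline B 3 endothelial markers did, with Kdr and Ramp2 among them and Flt1 not (limma adjusted p = 0.0954). Without saline B or C or bleomycin E 0 platelet markers passed, and without bleomycin D or F 1 did. Of the 15 macrophage markers 12 rose and 0 fell, with sums of 7165 to 8845 in saline and 21552 to 23006 in bleomycin lungs. The part of endothelium, platelets and macrophages in the Pdgfb values was not tested.

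Beside Pdgfa stand the epithelial markers. Of 12 alveolar epithelial markers 1 fell, Hopx, and 0 rose, with sums of 83314 to 84894 in saline and 61747 to 78771 in bleomycin lungs. The call of Hopx (limma adjusted p = 0.0466) was lost with any 1 array left out, with adjusted p from 0.0822 to 0.16, and with dim probe sets left out (0.0533). Of 6 club and ciliated cell markers 2 fell, Tppp3 and Cyp2f2. Without saline A or bleomycin D or F 0 of these passed, and without saline B or C 1 did. The part of epithelial cells in the Pdgfa values was not tested. Of 3 mesothelial markers 0 passed in limma, also at an unadjusted p under 0.05, the largest difference being 0.77 for Msln. By mean value, 2 pericyte markers lay below the 25th percentile of probe sets. So did 1 marker each of alveolar fibroblasts, smooth muscle and mesothelium.

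**Figure D4:**
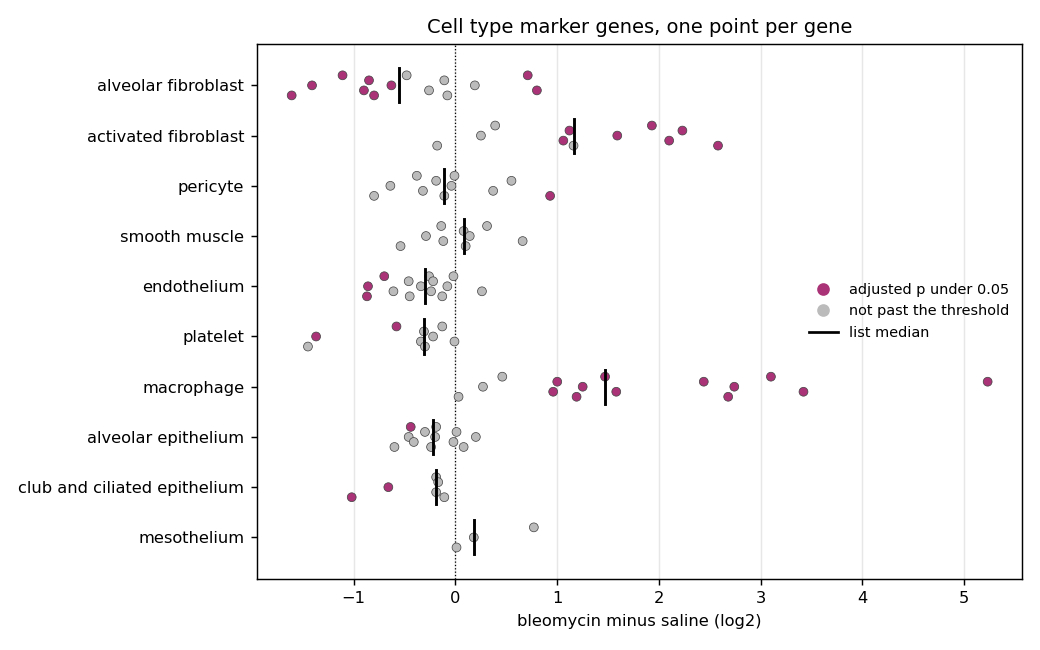
Bleomycin minus saline difference (log2, x axis) of marker genes of 10 cell types, with the list median as a black line and genes past an adjusted p of 0.05 in purple. Macrophage and activated fibroblast markers lie mostly to the right, with medians of 1.47 and 1.16, and alveolar fibroblast markers mostly to the left, with a median of -0.55.

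The genes whose profile over the 6 arrays was most like that of each member were found by the root-mean-square difference after subtracting each gene's saline mean, among 12392 other genes. For Pdgfc they were Hmox1, which encodes the haem-degrading enzyme heme oxygenase 1 (0.07 log2 units), Litaf (0.13) and Car13 (0.14). Hmox1 stood at 7.86, 7.37 and 7.74 in saline A, B and C, and at 9.08, 8.67 and 8.70 in bleomycin D, E and F. Like Pdgfc on the probe set used, though not on the other, it was lowest in saline B and highest in bleomycin D, and its difference was also 1.16 log2 units (limma adjusted p = 0.00881). Genes were picked for a close profile, so a shared order or size of difference follows from that choice, here and for the other members.

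For Pdgfrb the most alike were Anks1 (0.05), Tnfrsf19 (0.08) and Runx1t1 (0.08), which differed by -0.45, -0.35 and -0.49 log2 units without passing the test. For Pdgfra they were Ubp1 (0.08), Zcchc7 (0.09) and Hnrnph1 (0.10). For Pdgfb they were Gigyf2 (0.09), the Notch target Hes1 (0.10) and Map3k11 (0.11), all highest in saline A and lowest in saline B, as Pdgfb was. For Pdgfa they were Sgta (0.03), Agt (0.04) and Skil (0.04), none of which differed by more than 0.06. With few arrays and many genes, close profiles of a gene that hardly varied are common, and these names are a description only.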

How the data were processed

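The authors deposited log2 values, 1 for each probe set and array, made by RMA with quantile normalization, per the submitters' processing notes and the design text. The sources used here do not state the software version or background step. That the scale is log2 was read from the values, whose largest is 14.42. Of 22690 probe sets, 64 controls were left out. GEO's platform annotation supplied the gene names: 20380 tested probe sets had 1 symbol, 691 several and 1555 none, and 20351 were matched by Entrez ID to RefSeq names of GRCm38.p6. List genes without a named probe set were left out.

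The groups were compared by lmFit and eBayes of limma 3.58.1 in R 4.3.3, without covariates, since no letter is shared between the groups. The fit was tested on data simulated from its own variance model, which cannot show how well that model holds for these arrays. A fold is the power of 2 of the difference, and a marker list's summed level adds the linear values of its genes on one array. Named genes were the 5 members, 7 genes close to them, up to 4 called genes of each list or its largest difference, and the 3 closest profiles of each member. Fos, Grb2, Dusp1, Cav1, Ebf1, Kcnj8, Eng, Gp1bb, Gyg, Plin2, Postn, Sfrp1, Sftpc, Xist and Eif2s3y were named after their values were seen. The members and lists were chosen with earlier results of these data known. Alternatives were a filter on dim probe sets, a trended robust prior, array weights, repeated quantile normalization, centring on ribosomal protein genes, other readings of the probe sets, a stricter threshold and leaving out each array. Exact tests used scipy 1.17.1, and figures matplotlib 3.10.9.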

Additional observations from a re-analysis of the deposited data

How the results depend on the processing

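Pdgfc kept its direction in every alternative run, with differences of 0.98 to 1.28 log2 units when 1 array was left out. Its adjusted p of 0.012 misses a threshold of 0.01, where the difference is the same 1.16, and the call was lost without saline A. Pdgfa ranged from -0.14 to 0.01 and Pdgfb from -0.23 to 0.22 with 1 array left out, and Pdgfb was 0.19 with array weights. Read by their dimmer probe sets, Pdgfra was 0.22 and Pdgfrb 0.02. None of these 4 genes passed in any alternative. Among pairs, Pdgfa minus Pdgfra was -0.11 over the means of the probe sets, against 0.32. With 1 array left out, Pdgfa minus Pdgfb ranged from -0.26 to 0.24 and Pdgfra minus Pdgfrb from -0.15 to 0.24. These fits leave out arrays; beyond that the cause was not tested.

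Over all genes, 694 passed, against 163 at an adjusted p of 0.01 and 185 to 550 with 1 array left out. Of all list genes, members included, 43 passed, against 16 at 0.01 and 17 to 38 with 1 array left out. Calls over all genes were 458 higher and 236 lower. Centring on ribosomal protein genes shifted the median of all genes by -0.11 and gave 310 and 283, and Pdgfc then differed by 1.05 (limma adjusted p = 0.022). Fits on the second Pdgfc probe set were chosen after seeing the data. Without scanner files, signal over background and scan batch were not examined, so a dim probe set such as that of Pdgfd may lie near background.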
